A study of Mus musculus with 12 samples.

Results

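The hearts compared were the control hearts of a mouse study of the NOTCH2NLC-(GGC)98 repeat expansion, 3 Myh6-ctl hearts taken at postnatal day 90 (P90) and 3 EIIa-ctl hearts taken at postnatal day 30 (P30). They were chosen by their group and age labels alone and make up 6 of the 12 hearts measured by bulk RNA sequencing. EIIa-ctl mice carried the conditional transgene at the Rosa26 locus behind a loxP-stop-loxP cassette, had no Cre and were not injected. Myh6-ctl mice carried the same silent transgene together with Myh6-creERT2, an inducible Cre that the cardiomyocyte promoter of Myh6 drives, and received corn oil by intraperitoneal injection every other day from P60, 3 injections in all. The other 6 hearts were EIIa-tg, which expressed the repeat from a ubiquitous Cre and were taken at P30, and Myh6-tg, which received 75 mg/kg tamoxifen in place of oil alone and were taken at P90. The comparison asks how heart RNA of a juvenile mouse differs from that of an adult mouse, but age, the driver line, the oil injections and the litter changed together between these groups and cannot be told apart.

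After the early postnatal period the mouse heart grows mainly by enlargement of cardiomyocytes that have left the cell cycle. By weaning most contractile proteins have switched from fetal to adult isoforms, as when alpha myosin heavy chain replaces beta myosin heavy chain in the ventricle, and the main fuel has moved from glucose towards fatty acids. Ion channels, transverse tubules and intercalated discs take on their adult arrangement, and resident macrophages, fibroblasts and vessels persist beside the muscle. Day 30 lies after most of these switches, so the comparison covers the passage from a young to a grown heart and not the perinatal change itself.

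Each heart had between 40839423 and 50940490 assigned reads, so that 3 counts, taken as the detection floor, corresponded to 0.0589 to 0.0735 CPM (counts scaled to a fixed library size). Mitochondrially encoded genes took 31.8% to 38.3% of the counts. Cardiac genes dominated all 6 libraries, whereas the summed brain markers stayed at 22.0 to 47.2 CPM, although an extraction text in the labels speaks of brain tissue. Y-linked genes were read in replicate 1 of each group and at no more than 2 counts in the other 4 hearts, so sex was balanced between the groups. P30 hearts lay closer to each other (Euclidean distance 77.6 to 80.7 over log2 CPM of all genes tested) than P90 hearts did (91.0 to 108), and distances between the groups ran from 86.8 to 113. Replicate 1 of Myh6-ctl stood nearest to the P30 hearts, at 86.8 to 94.8, and several counts are given both with and without it. In the values below, CPM is scaled to the effective library size of these 6 hearts, a log2 fold change is P90 minus P30 with its standard error (SE), and a gene is said to have risen or fallen only when its Benjamini-Hochberg adjusted p in edgeR's quasi-likelihood test was under 0.05.

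The inducible driver was read first, because it bears on the labels. The inducible Cre is fused to an oestrogen receptor domain. Reads of that domain can be assigned to mouse Esr1, the oestrogen receptor alpha gene at chr10:4611593-5005614 (GRCm38). Esr1 had 103037, 53433 and 54306 counts in the 3 Myh6-ctl hearts and 54, 26 and 15 in the EIIa-ctl hearts, a log2 fold change of 10.98 (SE 0.54, edgeR adjusted p = 0.00017). A1cf on chromosome 19, the gene in which the transgene of the Myh6-creERT2 line is inserted, had 68, 21 and 21 counts in the Myh6-ctl hearts and 0 in every EIIa-ctl heart, where the floor of 3 counts applies to each library. NewGene_910, a transcript that the authors assembled without a gene name, had 892, 387 and 476 counts against 2, 2 and 0 (edgeR adjusted p = 0.00186), and its fitted log2 fold change of 8.49 (SE 0.60) depends on the prior count, since each EIIa-ctl heart was under the floor. Esr1 and A1cf were present in each Myh6-ctl heart. In the EIIa-ctl hearts A1cf was at 0 and Esr1 at no more than 54 counts. The labels of both control groups state the same for the driver. NewGene_910 is given beside them because edgeR called it in this same comparison. Its difference between the groups is therefore no separate check of the labels, and a link to the driver was not tested. By their labels Myh6-ctl and Myh6-tg carry the driver alike, so its presence alone cannot tell these labels apart. In the counts, however, the groups differed. The libraries labelled Myh6-tg had only 61, 116 and 53 counts of Esr1 and 0 of A1cf, which conflicts with their label. The reason for this conflict was not tested. Whether the P90 control hearts match their label beyond the driver was not tested. Esr1 and A1cf are known marks of this line. They remain in the counts over all genes below but are not read as differences of age. Replicate 1 of Myh6-ctl had the most counts of Esr1, A1cf and NewGene_910.

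Across all genes, few differences between P90 and P30 passed the adjusted threshold in edgeR, with 3 hearts a side. Of 14990 genes tested, 5 passed the adjusted threshold, 3 higher (0.0200% of the genes tested) and 2 lower (0.0133%), and the same 5 passed an adjusted p of 0.01 with an absolute log2 fold change of at least 1. At an unadjusted p under 0.05 there were 1700 genes, 967 higher and 733 lower. DESeq2, the tool of the study, called 428 of 16285 genes, 292 higher (1.79%) and 136 lower (0.835%), among them all 5 genes called by edgeR. The groups did not overlap, meaning that all P90 hearts lay on the same side of all P30 hearts, for 1323 genes that were higher (8.83%) and 1295 that were lower (8.64%). The median log2 fold change over all genes was 0.0151, and 52% of the genes lay above 0. The counts rest on single hearts: edgeR called 3 genes without EIIa-ctl replicate 1, 98 without Myh6-ctl replicate 1 and 33 without Myh6-ctl replicate 2. At the stricter thresholds edgeR left 2, 0 and 3 genes without EIIa-ctl replicates 1, 2 and 3, and 9 and 3 without Myh6-ctl replicates 1 and 3. In the same way DESeq2 called 193 and 144 without EIIa-ctl replicates 1 and 3 and 959, 647 and 236 without Myh6-ctl replicates 1, 2 and 3. Counts without overlap grow by construction when 1 heart is left out, to between 1715 and 2698 higher and between 1736 and 2636 lower genes. They were 2381 higher and 2276 lower of 15390 genes without EIIa-ctl replicate 2. Without Myh6-ctl replicate 1 they were 2636 higher and 2632 lower of 15334. Without Myh6-ctl replicate 2 they were 2698 higher and 2636 lower of 15300, and without Myh6-ctl replicate 3 1906 higher and 2004 lower of 15183. Outside the line marks, edgeR called no member of any gene list. Gene lists are therefore described by the hearts' own values, by counts of members called by each tool or without overlap and by the median, with the percentages just given as background, and the p-values measure only the spread between these hearts.

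Apart from the line marks, 1 named gene rose and 1 fell. Serpina3n, an acute-phase serine protease inhibitor at chr12:104406729-104414329, stood at 6.18, 8.34 and 4.29 CPM in the P30 hearts and at 45.4, 41.5 and 51.2 CPM in the P90 hearts. The means were 6.27 ± 2.03 and 46.03 ± 4.91 CPM (SD, n = 3). Its log2 fold change was 2.88 (SE 0.24, edgeR adjusted p = 0.00498), and every P90 heart was at least at 41.5 CPM. Frem2, a basement membrane protein of the Fraser complex at chr3:53513938-53657355, stood at 16.8, 15.1 and 17.2 CPM at P30 and at 2.46, 2.00 and 3.43 CPM at P90. The means were 16.35 ± 1.13 and 2.63 ± 0.728 CPM (SD, n = 3). It fell by 2.63 on the log2 scale (SE 0.23, edgeR adjusted p = 0.00514), with the hearts of each age close together. NewGene_4838, another assembled transcript without a name, fell from 13.5, 11.2 and 10.5 CPM to 2.56, 2.86 and 2.49 CPM (log2 fold change -2.15, SE 0.19, edgeR adjusted p = 0.0053). Without EIIa-ctl replicate 1 the adjusted p of these 3 genes rose past the threshold, to 0.0523 for Serpina3n, 0.0509 for Frem2 and 0.0523 for NewGene_4838, and with all 12 hearts in 1 fit those of Serpina3n and NewGene_4838 were 0.0892 and 0.383, all with unchanged sign. At the looser adjusted p of 0.1 there were 66 genes, 42 higher and 24 lower.

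**Figure D1:**
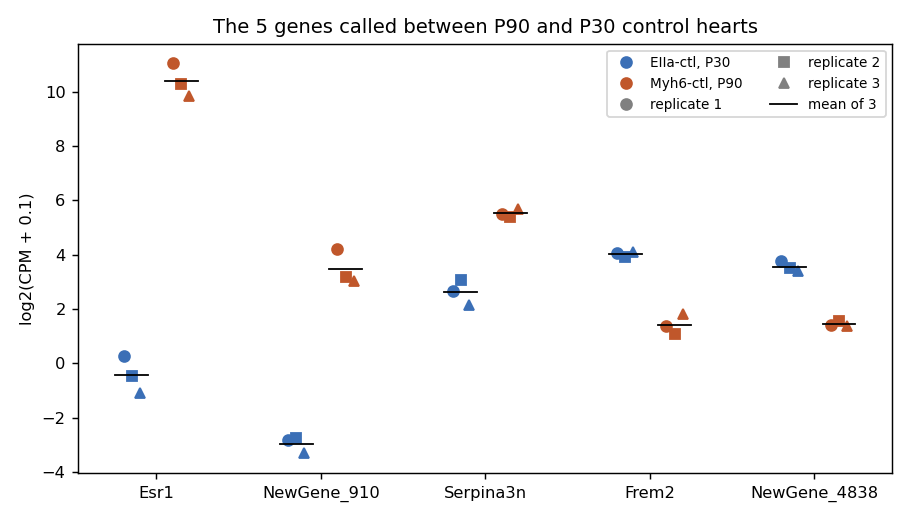
The 5 genes called by edgeR between P90 and P30 control hearts. The vertical axis is log2(CPM + 0.1), each point is 1 heart (blue EIIa-ctl at P30, orange Myh6-ctl at P90, marker shape by replicate) and the line is the mean of 3. In all 5 genes the points of P30 and P90 stand apart, with NewGene_910 at no more than 2 counts and Esr1 at 15 to 54 counts in the P30 hearts.

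Most macrophage markers were higher at P90. Cardiac macrophages seed the heart before and after birth, take up debris and make much of the tissue's complement C1q. Of 25 markers tested, 24 had a log2 fold change above 0, 15 were higher without overlap and none lower without overlap, and the median was 0.944. DESeq2 called 16 higher and 0 lower, against the 1.79% over all genes, while edgeR called none. The summed markers stood at 642, 905 and 604 CPM at P30 and at 1165, 1193 and 1913 CPM at P90, so the groups did not overlap and replicate 3 of Myh6-ctl was highest. Without EIIa-ctl replicate 1, EIIa-ctl replicate 3 or Myh6-ctl replicate 3 the DESeq2 count dropped to 3, 1 and 4. The count without overlap grows by construction when a heart is left out, so it cannot show such a drop. Bulk RNA cannot tell apart a larger number of macrophages from more of these transcripts in each.

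Among pan-macrophage genes, Lyz2, which encodes lysozyme, stood at 207, 314 and 194 CPM at P30 and at 393, 436 and 751 CPM at P90 (log2 fold change 1.14, SE 0.28, DESeq2 adjusted p = 0.0012). Adgre1, the gene of the F4/80 antigen, stood at 14.2, 19.4 and 11.5 CPM against 25.4, 25.04 and 41.8 CPM. Csf1r, the receptor of the macrophage growth factor CSF1, differed less, at 60.1, 71.6 and 46.1 CPM against 81.2, 73.4 and 107 CPM (log2 fold change 0.56, SE 0.20, DESeq2 adjusted p = 0.17). All 3 genes were higher in every P90 heart. Itgam, the CD11b integrin of monocytes and macrophages, stood at 3.46, 5.36 and 3.31 CPM against 13.04, 6.47 and 18.9 CPM, and Ccr2, the receptor by which monocytes enter tissue, at 1.49, 5.05 and 2.74 CPM against 6.75, 7.82 and 13.1 CPM.

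Genes linked to resident macrophages did not all go one way. Lyve1 and Mrc1, scavenger receptors of resident cells, were higher in every P90 heart, Lyve1 at 22.4, 22.2 and 18.2 CPM against 42.8, 29.9 and 79.5 CPM and Mrc1 at 30.9, 36.2 and 30.4 CPM against 65.6, 42.8 and 79.4 CPM. Timd4, a phosphatidylserine receptor of self-renewing macrophages, stood at 2.56, 4.16 and 2.87 CPM against 4.12, 3.65 and 4.03 CPM, with overlap. Cx3cr1, the fractalkine receptor, was the 1 marker with a fold change below 0, at 4.15, 7.01 and 5.12 CPM against 7.199, 1.35 and 2.69 CPM. Vsig4, a complement receptor of resident macrophages that was not in the list, stood at 0.737, 0.638 and 0.637 CPM against 4.88, 2.70 and 4.64 CPM (log2 fold change 2.60, SE 0.34, edgeR adjusted p = 0.0527). Gpnmb, a lysosomal glycoprotein of lipid-laden phagocytes, had the largest fold change of the macrophage markers, at 1.02, 1.79 and 1.15 CPM against 3.75, 10.03 and 8.21 CPM (log2 fold change 2.47, SE 0.40, edgeR adjusted p = 0.0823).

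Complement genes were higher along with the macrophage markers. Complement is the blood and tissue protein cascade that coats targets for uptake, with C1q made mainly by macrophages and C3 and C4 by several cell types. Of 19 genes tested, 13 were higher without overlap and 1 lower, the median was 0.985, and DESeq2 called 12 higher (5 to 13 when 1 heart was left out, with 5 without EIIa-ctl replicate 1, 5 without EIIa-ctl replicate 3 and 7 without Myh6-ctl replicate 3). C3, the central component, stood at 58.0, 59.8 and 44.0 CPM at P30 and at 390, 128 and 315 CPM at P90 (log2 fold change 2.36, SE 0.36, edgeR adjusted p = 0.0707, DESeq2 adjusted p = 1.5e-11). C4b, which forms part of the enzyme that cleaves C3, stood at 8.72, 9.19 and 7.37 CPM against 48.5, 15.9 and 39.6 CPM. In both genes replicate 2 of Myh6-ctl was the lowest P90 heart and still above every P30 heart.

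The receptors C3ar1 (6.40, 8.97 and 6.07 CPM against 15.6, 14.9 and 16.0 CPM) and C5ar1 (6.10, 7.51 and 4.16 CPM against 13.003, 13.3 and 16.9 CPM) were higher in every P90 heart. C1qa, C1qb and C1qc, the subunits of C1q that also stand in the macrophage list, had log2 fold changes of 0.84, 0.84 and 0.80 with DESeq2 adjusted p of 0.0038, 0.01 and 0.0075. Each of these subunits was called by DESeq2 in 3 of the 6 fits that left out 1 heart. The inhibitor Serping1, which blocks C1, had a log2 fold change of 0.69 (SE 0.14, DESeq2 adjusted p = 0.00072). Cd59a, which guards cell membranes against complement, was the 1 member lower without overlap, at 61.7, 65.4 and 71.2 CPM against 54.2, 59.6 and 47.6 CPM.

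Ccl6, Ccl9 and Ccl7, chemokines that belong to none of the lists, were named after their values were seen and are given as single genes. Ccl6 stood at 11.99, 17.5 and 11.6 CPM at P30 and at 38.3, 33.4 and 58.3 CPM at P90 (log2 fold change 1.66, SE 0.25, edgeR adjusted p = 0.0675). Ccl9 stood at 11.1, 14.9 and 6.66 CPM against 32.2, 31.1 and 51.8 CPM, and Ccl7, which attracts monocytes, at 1.02, 2.43 and 1.59 CPM against 7.12, 5.98 and 6.80 CPM. Each of the 3 chemokines had an edgeR adjusted p between 0.05 and 0.1 and did not overlap between the ages.

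Other immune groups were small or mixed. Of 14 T and NK cell genes tested, 4 were higher without overlap, yet their sum over the whole list was only 5.599 to 14.0 CPM in all 6 hearts, and without Myh6-ctl replicate 1 the count was 10 of 16. Of 10 B cell genes none was higher without overlap and 2 were lower. Of 3 neutrophil genes tested 1 was higher without overlap, and the neutrophil sum of 17.1 CPM in replicate 1 of Myh6-ctl compared with 2.07 to 2.91 CPM in the other 5 hearts. Antigen presentation genes had a median of 0.248 with 0 of 21 apart, and interferon-stimulated genes a median of 0.0744 with 2 of 39 higher without overlap. Both counts changed when 1 heart was left out, which by construction raises counts without overlap. Without EIIa-ctl replicate 2, 11 of 21 antigen presentation and 12 of 39 interferon-stimulated genes were higher without overlap, against 2381 of 15390 genes tested. Without Myh6-ctl replicate 1, DESeq2 called 5 antigen presentation genes higher and 2 interferon-stimulated genes lower. Over all genes it called 525 higher and 434 lower in that setting. Without Myh6-ctl replicate 2, 9 interferon-stimulated genes were higher without overlap, against 2698 of 15300 genes tested. Of the interferon-stimulated genes, Gbp6, a guanylate-binding protein, stood at 16.7, 15.5 and 12.3 CPM against 52.0, 21.2 and 27.6 CPM.

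**Figure D2:**
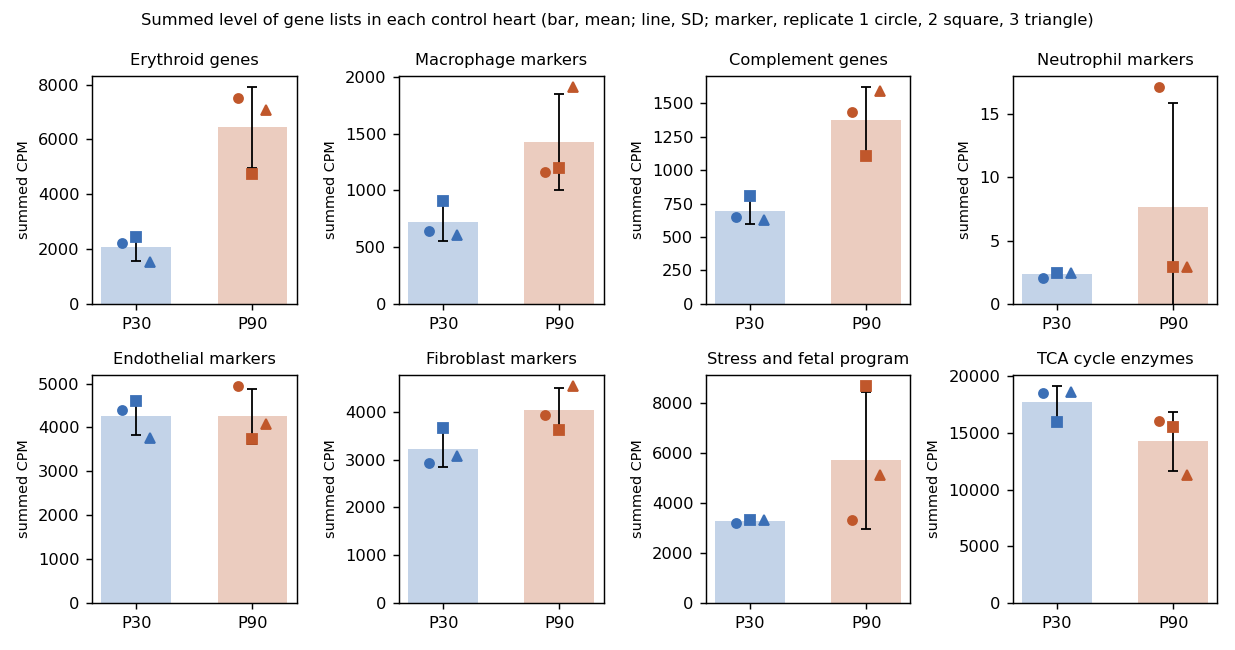
Summed CPM of 8 gene lists in each control heart, P30 and P90. Bars are means of 3 hearts, lines are SD and markers are hearts (circle, square and triangle for replicates 1, 2 and 3). Erythroid, macrophage and complement sums did not overlap between the ages, 1 P90 heart set the neutrophil mean, and endothelial sums overlapped.

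Haemoglobin transcripts, which reach the heart with red cells and reticulocytes, were higher in all P90 hearts. They took 0.137% to 0.243% of the counts at P30 and 0.428% to 0.795% at P90. Hbb-bs, an adult beta globin, stood at 852, 915 and 546 CPM at P30 and at 3005, 1949 and 2994 CPM at P90 (log2 fold change 1.78, SE 0.26, edgeR adjusted p = 0.0618, DESeq2 adjusted p = 1.4e-11), and Hba-a1, an alpha globin, at 636, 719 and 414 CPM against 2144, 1338 and 1930 CPM. The globin genes are close copies, so the split of reads among them is uncertain, but all 4 of those listed went the same way. Alas2, the enzyme of haem synthesis in red cell precursors, stood at 21.6, 22.6 and 12.7 CPM against 99.9, 32.0 and 70.5 CPM. Of 9 erythroid genes tested 8 were higher without overlap, none lower, with a median of 1.78, and DESeq2 called 5. The exception was Tfrc, the transferrin receptor that cardiomyocytes also express, at 63.6, 65.5 and 115 CPM against 63.8, 22.2 and 22.8 CPM. The blood left in each heart was not recorded in the labels, and its part in the immune and complement results was not tested.

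**Figure D3:**
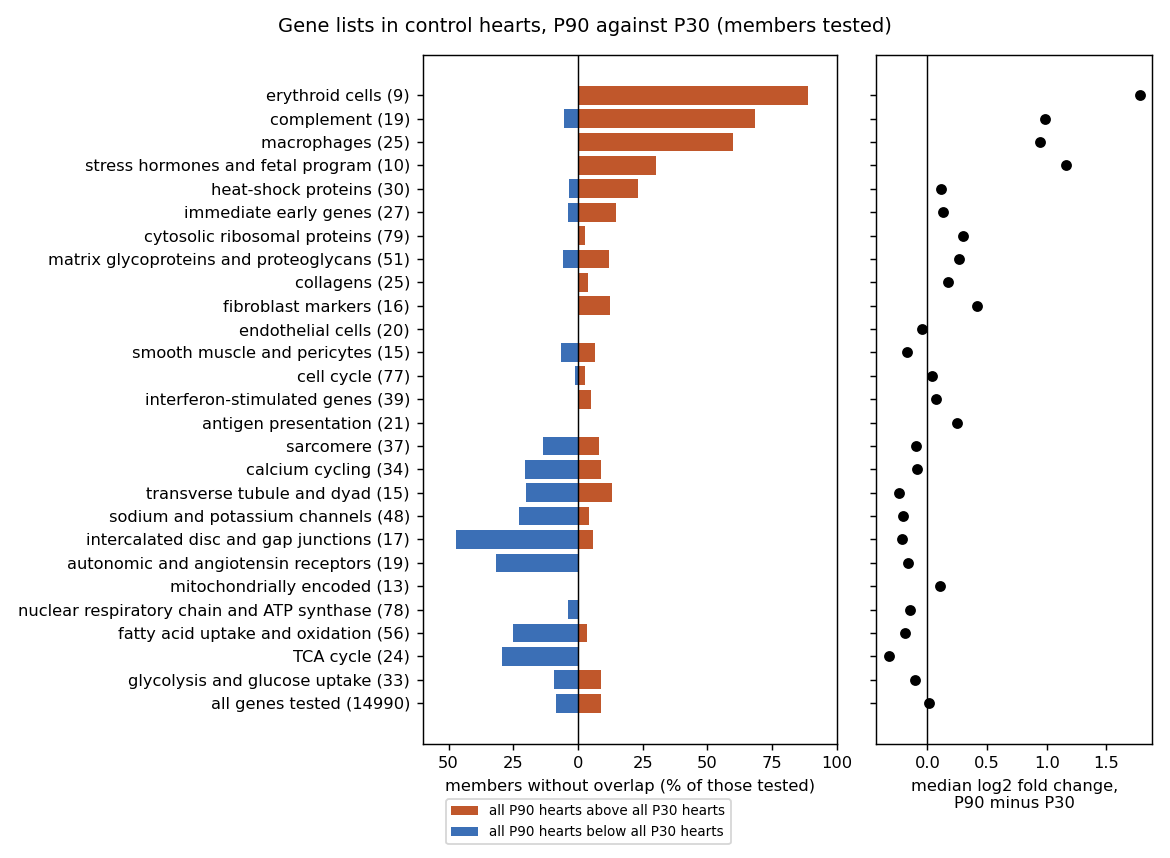
Gene lists in P90 against P30 control hearts, with the number of members tested in brackets. The left panel gives the percent of members whose 3 P90 hearts all lay above (orange) or below (blue) the 3 P30 hearts, and the right panel the median log2 fold change. All genes tested are the last row, with 8.83% above and 8.64% below; erythroid, complement and macrophage lists reach furthest to the right, and intercalated disc genes furthest to the left.

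In the sarcomere, the contractile unit of the cardiomyocyte, the adult isoforms predominated at both ages and most members overlapped. Of 37 genes tested, 3 were higher and 5 lower without overlap, and the median was -0.0941. DESeq2 called 2 higher and 2 lower, and these counts became 7 and 4 without Myh6-ctl replicate 1 and 1 and 5 without Myh6-ctl replicate 2. Without EIIa-ctl replicate 2, 14 were lower without overlap, against 2276 of 15390 genes tested. Myh6, the alpha myosin heavy chain of the adult mouse ventricle, stood at 11545, 9463 and 12524 CPM at P30 and at 9532, 6475 and 8652 CPM at P90. Myh7, the beta chain of the fetal ventricle, stood at 389, 473 and 448 CPM against 390, 1313 and 1100 CPM. By FPKM, which allows genes to be compared per length, Myh7 made up 3.18%, 4.57% and 3.35% of the sum of both at P30 and 3.86%, 15% and 11.1% at P90 (exact permutation p = 0.2, two-sided, where 0.1 is the smallest p that 3 against 3 hearts allow). Replicate 1 of Myh6-ctl thus lay within the range of the P30 hearts and the other P90 hearts above it.

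Other isoform pairs did not separate the ages either. Tnni1, the slow skeletal troponin I of the fetal heart, was very low in all 6 hearts, with 0.0410 to 0.419 CPM, beside 1252 to 2591 CPM of its adult counterpart Tnni3. Tnni3 was lower in every P90 heart, at 2257, 2212 and 2591 CPM against 1793, 1950 and 1252 CPM (log2 fold change -0.50, SE 0.20, edgeR adjusted p = 0.41). Acta1, the skeletal alpha actin, made up 2.21% to 2.54% of its FPKM sum with cardiac Actc1 at P30 and 1.95%, 3.56% and 3.90% at P90 (exact permutation p = 0.4). Both pairs overlapped between the ages.

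Tcap and Lmod3 of the sarcomere list and Ky, which is in no list, were lower in every P90 heart. Tcap, the titin cap protein telethonin, stood at 1439, 1329 and 1447 CPM at P30 and at 368, 807 and 632 CPM at P90 (log2 fold change -1.22, SE 0.26, edgeR adjusted p = 0.14, DESeq2 adjusted p = 0.00013). Ky, a cytoskeletal protein needed for muscle growth, stood at 24.2, 17.3 and 21.3 CPM against 7.49, 5.05 and 3.36 CPM (log2 fold change -1.98, SE 0.29, edgeR adjusted p = 0.0618). Lmod3, the leiomodin that seeds thin filaments, stood at 95.5, 72.4 and 108 CPM against 66.2, 52.4 and 47.5 CPM.

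Xirp2, a Xin repeat protein that binds actin at the intercalated disc, went the other way, at 139, 164 and 134 CPM against 201, 302 and 366 CPM (log2 fold change 0.99, SE 0.22, DESeq2 adjusted p = 0.00075). Outside the list, Mylk4, a myosin light chain kinase of striated muscle, stood at 199, 119 and 175 CPM against 80.4, 59.7 and 83.0 CPM, and Klhl33, a kelch protein, at 16.9, 12.5 and 15.3 CPM against 5.93, 4.26 and 3.98 CPM (log2 fold change -1.66, SE 0.22, edgeR adjusted p = 0.0527).

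Stress hormones and fetal genes of the loaded heart were higher at P90 in some hearts. All 10 genes tested had a log2 fold change above 0, with a median of 1.16, and 3 were higher without overlap. DESeq2 called 3, and 7 without Myh6-ctl replicate 1, 1 without EIIa-ctl replicate 1 and 1 without EIIa-ctl replicate 3. Their sum was 3189 to 3328 CPM at P30 and 3297, 8682 and 5104 CPM at P90. Nppa, atrial natriuretic peptide, stood at 104, 320 and 188 CPM against 137, 1630 and 685 CPM, so replicate 1 of Myh6-ctl lay among the P30 hearts and the other P90 hearts above them. Nppb, brain natriuretic peptide, stood at 38.04, 80.5 and 47.8 CPM against 131, 183 and 82.0 CPM (log2 fold change 1.25, SE 0.34, DESeq2 adjusted p = 0.0031). With 1 heart left out, DESeq2 called Nppb in 3 of 6 fits. Rcan1, an inhibitor and target of calcineurin, was higher in every P90 heart, at 51.6, 65.5 and 52.4 CPM against 164, 121 and 97.5 CPM (log2 fold change 1.17, SE 0.20, edgeR adjusted p = 0.0927). Ankrd1, a stretch-induced ankyrin repeat protein, overlapped, at 819, 584 and 611 CPM against 764, 1731 and 967 CPM. Atrial marker genes, of which Nppa is a member, summed to 1082 to 1287 CPM at P30 and to 1249, 2963 and 1790 CPM at P90, and the amount of atrium in each sample was not tested.

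**Figure D4:**
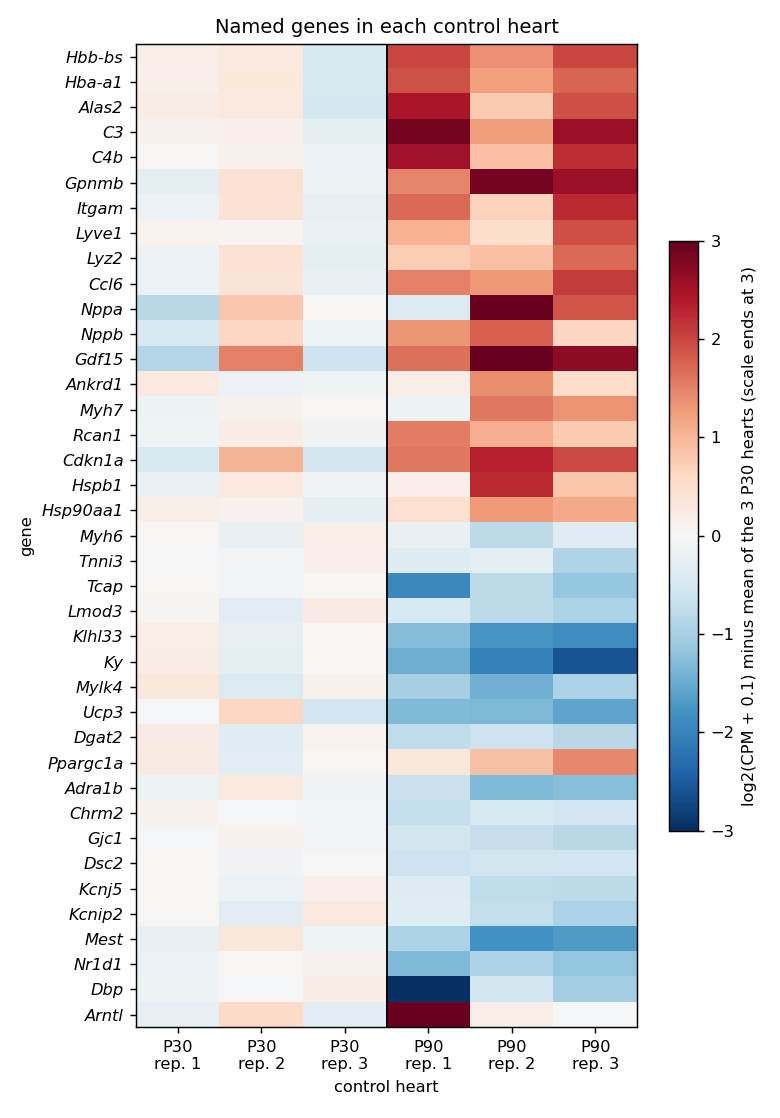
Level of named genes in each control heart, as log2(CPM + 0.1) minus the mean of the 3 P30 hearts, with red higher, blue lower and the scale ending at 3. Globin, complement and macrophage genes are red in all 3 P90 hearts, Nppa, Myh7 and Ankrd1 are highest in P90 replicates 2 and 3, and Arntl and Dbp stand apart in P90 replicate 1.

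Genes of electrical excitation and cell contact were lower at P90 by small amounts. Of 48 sodium and potassium channel genes tested 11 were lower and 2 higher without overlap, with a median of -0.206, and of 17 intercalated disc genes 8 were lower and 1 higher, with a median of -0.209. DESeq2 called 3 channel genes lower and 1 higher, and 2 disc genes lower (0 to 3 when 1 heart was left out, with 0 without EIIa-ctl replicate 1 or 3). The channel count became 0 lower without EIIa-ctl replicate 3 or Myh6-ctl replicate 3, 1 without EIIa-ctl replicate 1 and 5, 7 and 5 without EIIa-ctl replicate 2 and Myh6-ctl replicates 1 and 2. Kcnj5, a subunit of the acetylcholine-gated potassium channel, stood at 50.3, 43.8 and 54.4 CPM at P30 and at 37.5, 29.2 and 28.4 CPM at P90 (log2 fold change -0.64, SE 0.16, DESeq2 adjusted p = 0.024). With 1 heart left out, DESeq2 called Kcnj5 in 3 of 6 fits. Kcnip2, the partner of the channels behind the transient outward current, stood at 183, 143 and 222 CPM against 139, 110 and 92.6 CPM.

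For a pair of pore subunits the values of the ages overlapped. Kcnj2, which sets the resting potential, stood at 25.6, 27.9 and 34.2 CPM against 25.2, 27.0 and 19.3 CPM, and Hcn4, the pacemaker channel, at 7.69, 3.59 and 5.95 CPM against 4.72, 1.61 and 3.20 CPM. Neither edgeR nor DESeq2 called a difference in either gene.

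At the intercalated disc the lower members were desmosomal and adherens proteins as well as connexins. Gjc1, connexin 45, stood at 26.9, 30.7 and 26.5 CPM at P30 and at 19.1, 17.3 and 15.7 CPM at P90 (log2 fold change -0.69, SE 0.14, DESeq2 adjusted p = 0.0079). With 1 heart left out, DESeq2 called Gjc1 in 3 of 6 fits. Dsc2, desmocollin 2, stood at 39.8, 35.8 and 39.5 CPM against 24.9, 25.9 and 25.7 CPM, with hearts of each age within a narrow range (log2 fold change -0.59, SE 0.12, DESeq2 adjusted p = 0.012). Dsg2, Jup, Cdh2, Ctnna1 and Ctnnb1 were also lower in every P90 heart, by 0.21 to 0.40 on the log2 scale. Gja1, connexin 43 and the main ventricular connexin, overlapped at 318, 319 and 388 CPM against 371, 246 and 191 CPM.

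Among 19 autonomic and angiotensin receptor genes and their partners, 6 were lower without overlap and 0 higher, and DESeq2 called 2 lower (1 without EIIa-ctl replicate 1 or 3, and 4 without Myh6-ctl replicate 1 or 2). Adra1b, the alpha-1B adrenoceptor, stood at 26.4, 36.0 and 26.7 CPM against 18.5, 11.7 and 11.96 CPM (log2 fold change -1.08, SE 0.22, DESeq2 adjusted p = 0.00083). Chrm2, the muscarinic receptor of vagal slowing, stood at 111, 99.2 and 95.2 CPM against 62.0, 72.6 and 68.5 CPM (log2 fold change -0.59, SE 0.13, DESeq2 adjusted p = 0.011). Adrb1, the main beta adrenoceptor of the heart, was lower in every P90 heart but was called by neither tool, at 13.3, 17.8 and 17.6 CPM against 11.2, 10.6 and 7.16 CPM (DESeq2 adjusted p = 0.066).

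Calcium cycling genes gave no call by either tool, with 7 of 34 lower and 3 higher without overlap and a median of -0.0825. Without Myh6-ctl replicate 1, DESeq2 called 3 of them lower and 11 were lower without overlap, and without EIIa-ctl replicate 2 this last count was 13. Over all genes, 2632 of 15334 and 2276 of 15390 were lower without overlap in these settings. Atp2a2, the SERCA2 pump that refills the sarcoplasmic reticulum, stood at 10650, 8531 and 10510 CPM against 8777, 6376 and 5808 CPM, its inhibitor Pln at 6728, 5681 and 7014 CPM against 5678, 5155 and 4026 CPM, and Ryr2, the release channel, at 560, 425 and 538 CPM against 513, 319 and 436 CPM. Pln made up 56.0% to 59.3% of its FPKM sum with Atp2a2 at P30 and 58.2% to 61.4% at P90, an overlapping range. Of 15 transverse tubule and dyad genes 3 were lower and 2 higher without overlap (8 lower without EIIa-ctl replicate 2 and 6 without Myh6-ctl replicate 1), Tcap having the largest change, and Bin1, which bends the tubule membrane, was higher in every P90 heart, at 8.66, 12.9 and 8.67 CPM against 13.6, 13.8 and 14.0 CPM.

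Genes of the TCA cycle and the nuclear-encoded respiratory chain mostly had small log2 fold changes below 0, to an extent that rested on single hearts. All 24 genes of the TCA cycle had a log2 fold change below 0, with a median of -0.322. Lower without overlap were 7 genes (29.2%), against 8.64% over all genes, and neither tool called any of the 24. Their sum was 18471, 15966 and 18585 CPM at P30 and 16026, 15493 and 11272 CPM at P90. Without Myh6-ctl replicate 3 the median was -0.161. Without Myh6-ctl replicates 1 and 2, DESeq2 called 4 and 1 lower and 16 and 13 were lower without overlap, and without EIIa-ctl replicate 2 there were 17 lower without overlap. Nuclear-encoded subunits of oxidative phosphorylation had a median of -0.142, with 75 of 78 below 0. Only 3 (3.85%) were lower without overlap, under the 8.64% over all genes, and neither tool called any. The median was 0.0277 without Myh6-ctl replicate 3 and -0.383 without Myh6-ctl replicate 2. In the latter setting 65 were lower without overlap, against 2636 of 15300 genes tested, and DESeq2 called 4 lower. The median of the nuclear-encoded list thus changed sign when 1 heart was left out. The 13 mitochondrially encoded genes had a median of 0.103 and none stood apart, but without Myh6-ctl replicate 3 the median was 0.282 and 10 were higher without overlap.

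Of 56 genes of fatty acid uptake and oxidation 14 were lower and 2 higher without overlap, and DESeq2 called 2 lower and 1 higher. These calls became 9 lower and 2 higher without Myh6-ctl replicate 1. None was higher without Myh6-ctl replicate 3 or any 1 of the EIIa-ctl hearts. Ucp3, a mitochondrial carrier induced by fatty acids, stood at 40.0, 63.4 and 27.7 CPM at P30 and at 16.5, 16.2 and 13.6 CPM at P90 (log2 fold change -1.50, SE 0.28, edgeR adjusted p = 0.0986). Dgat2, which makes triglyceride, stood at 455, 298 and 409 CPM against 223, 249 and 212 CPM (DESeq2 adjusted p = 0.0047). Ppargc1a, the coactivator that drives mitochondrial genes, was higher in every P90 heart, at 56.6, 37.9 and 49.4 CPM against 59.9, 86.7 and 130 CPM (log2 fold change 0.94, SE 0.27, DESeq2 adjusted p = 0.019), opposite to the sign of most of those genes. DESeq2 called Ppargc1a in only 2 of the 6 fits that left out 1 heart.

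The entry steps differed by little. Cd36, the fatty acid translocase, stood at 1569, 1600 and 1225 CPM against 1911, 1408 and 1206 CPM, Cpt1b, which admits fatty acids to mitochondria, at 503, 465 and 456 CPM against 456, 449 and 379 CPM, and Pdk4, which restrains glucose oxidation, at 264, 476 and 79.6 CPM against 269, 338 and 273 CPM. Neither tool called any of the 3. Of 33 glycolysis genes 3 were higher and 3 lower without overlap (12 lower without EIIa-ctl replicate 2 and 10 without Myh6-ctl replicate 1). Over all genes, 2276 of 15390 and 2632 of 15334 were lower without overlap in these settings. Slc2a1, the basal glucose transporter GLUT1, made up 2.61% to 2.85% of its FPKM sum with Slc2a4, the insulin-responsive GLUT4, at P30, and 3.62%, 6.79% and 5.65% at P90, without overlap (exact permutation p = 0.1, the smallest possible). Ckm, muscle creatine kinase, overlapped, at 2192, 1774 and 2344 CPM against 1985, 1781 and 1241 CPM, and of 11 creatine and high-energy phosphate genes 2 were lower without overlap.

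Proliferation genes were low at both ages and did not separate them. Of 77 cell cycle genes 2 were higher and 1 lower without overlap, under the background in both directions, or 17 higher and 1 lower without EIIa-ctl replicate 2, with a median of 0.0359 and sums of 274 to 371 CPM at P30 and 279 to 347 CPM at P90. Mki67, a protein of dividing cells, stood at 3.17, 6.73 and 2.23 CPM against 5.33, 2.61 and 8.62 CPM, and Top2a, the topoisomerase of replication, at 3.13, 5.64 and 2.94 CPM against 4.31, 4.12 and 7.27 CPM. Of 14 cyclins and inhibitors 3 were higher and 3 lower without overlap. Cdkn1a, the p21 inhibitor of cyclin-dependent kinases, stood at 13.7, 38.1 and 12.8 CPM against 56.7, 95.4 and 74.9 CPM (log2 fold change 1.82, SE 0.41, edgeR adjusted p = 0.16, DESeq2 adjusted p = 0.043). Ccnd2 and Cdk6, a cyclin and kinase of the entry into the cycle, were lower in every P90 heart by 0.42 and 0.35 on the log2 scale.

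Among 21 imprinted growth genes, whose expression declines after birth in many tissues, 3 were lower and 2 higher without overlap, with a median of -0.149. Mest, a hydrolase expressed from the paternal allele, stood at 12.01, 17.7 and 12.9 CPM at P30 and at 7.24, 3.93 and 4.22 CPM at P90 (log2 fold change -1.47, SE 0.28, edgeR adjusted p = 0.10, DESeq2 adjusted p = 0.0001). Igf2, a fetal growth factor, stood at 29.7, 43.1 and 38.3 CPM against 25.3 and 32.3 CPM in Myh6-ctl replicates 1 and 3 and was listed at 0 in replicate 2. Such single zeros beside at least 100 counts in the other hearts of the group occurred for 7 genes at P30 and 6 at P90, and they are not read as absence of expression. Of 26 cardiac transcription factor genes 5 were lower and 2 higher without overlap, none by a DESeq2 call. Without Myh6-ctl replicate 1, DESeq2 called 3 lower and 10 were lower without overlap, against 2632 of 15334 genes tested. Mef2c, a muscle regulator, stood at 66.8, 64.3 and 68.8 CPM against 52.6, 49.9 and 55.6 CPM.

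Fibrillar collagens overlapped between the ages, and other matrix genes went both ways. Of 25 collagen genes 1 was higher without overlap and none lower, with a median of 0.171. Col1a1 stood at 95.8, 181 and 114 CPM at P30 and at 146, 135 and 166 CPM at P90, Col3a1 at 261, 525 and 288 CPM against 352, 315 and 464 CPM, Fn1, fibronectin, at 60.2, 89.1 and 65.5 CPM against 73.6, 62.3 and 127 CPM, and Postn, the periostin of activated fibroblasts, at 45.1, 82.8 and 45.3 CPM against 49.8, 70.1 and 113 CPM. Replicate 2 of EIIa-ctl was the highest P30 heart in all 4 genes. Without it 12 collagens were higher without overlap, against 2381 of 15390 genes tested. Of 51 glycoproteins and proteoglycans 6 were higher (11.8%) and 3 lower (5.88%) without overlap, against 8.83% and 8.64% over all genes. Without EIIa-ctl replicate 2, 21 of them were higher without overlap. DESeq2 called 4 of these 51 genes higher, but 0 without EIIa-ctl replicate 3 or Myh6-ctl replicate 3, 1 without EIIa-ctl replicate 1 and 7 without EIIa-ctl replicate 2. Of 26 matrix processing genes 5 were higher (19.2%) and 4 lower (15.4%) without overlap. Of 16 fibroblast markers 2 were higher without overlap (12.5%), or 9 without EIIa-ctl replicate 2.

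Thbs1, a thrombospondin that activates TGF-beta, stood at 10.5, 18.96 and 7.18 CPM against 27.2, 24.5 and 40.2 CPM (log2 fold change 1.33, SE 0.34, DESeq2 adjusted p = 0.0031). P4ha1, a collagen prolyl hydroxylase, stood at 40.1, 45.9 and 38.8 CPM against 60.5, 80.5 and 84.8 CPM (log2 fold change 0.86, SE 0.16, DESeq2 adjusted p = 0.00055). Sparc, a collagen-binding glycoprotein, was lower in every P90 heart, at 619, 813 and 571 CPM against 446, 355 and 485 CPM (log2 fold change -0.64, SE 0.19, DESeq2 adjusted p = 0.034). With 1 heart left out, DESeq2 called Sparc in 2 and Thbs1 in 3 of 6 fits. Dcn, the proteoglycan decorin, was higher in every P90 heart, at 643, 686 and 606 CPM against 830, 879 and 943 CPM.

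Endothelial markers overlapped between the ages in all of 20 genes, and their sums were 3764 to 4590 CPM at P30 and 3738 to 4950 CPM at P90. Without Myh6-ctl replicate 1, 7 were lower and 1 higher without overlap and DESeq2 called 2 lower and 1 higher. Without Myh6-ctl replicate 2, 4 were higher without overlap and DESeq2 called 3 higher, so the direction depended on the heart left out. Of 15 smooth muscle and pericyte genes 1 was higher and 1 lower without overlap, and 7 were lower without Myh6-ctl replicate 1, when DESeq2 called 3 lower. The higher one was Cnn1, calponin of contractile smooth muscle, at 2.11, 2.46 and 2.52 CPM against 4.96, 22.7 and 8.12 CPM. Of 10 mesothelium and epicardium markers 3 were higher without overlap, with a median of 1.16 and sums of 15.6 to 28.3 CPM against 32.2 to 57.1 CPM, and Aldh1a2, the epicardial enzyme of retinoic acid synthesis, was called by DESeq2 (adjusted p = 0.0041). The list held no DESeq2 call without EIIa-ctl replicate 3 or Myh6-ctl replicate 3. All 6 white adipocyte genes tested had a log2 fold change above 0, with a median of 1.76, and 2 were higher without overlap. Neither tool called any of them, but DESeq2 called 2 higher without EIIa-ctl replicate 2 or Myh6-ctl replicate 1. The sums over the white adipocyte list overlapped, at 35.03 to 50.7 CPM at P30 and 39.3 to 60.1 CPM at P90. Angpt1 and Kit, a vessel-stabilising ligand and a stem cell factor receptor outside these lists, were lower in every P90 heart, Angpt1 at 30.4, 47.9 and 28.6 CPM against 17.7, 18.6 and 17.4 CPM and Kit at 10.5, 12.2 and 12.3 CPM against 3.999, 5.98 and 5.55 CPM. The brown adipocyte, platelet, conduction system, skeletal muscle, nerve, lung, liver and thymus lists held no more than 2 genes higher and 1 lower without overlap each.

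Clock genes set 1 heart apart, and some of them were lower in every P90 heart. Their sum was 1099 to 1279 CPM at P30, 482 CPM in replicate 1 of Myh6-ctl and 979 and 1020 CPM in the other P90 hearts. Dbp, an output gene of the clock, stood at 179, 189 and 231 CPM at P30 and at 4.72, 136 and 95.7 CPM at P90. Arntl, the clock activator BMAL1 that runs opposite to Dbp, stood at 1.02, 1.89 and 0.980 CPM at P30 and at 26.3, 1.42 and 1.18 CPM at P90. Replicate 1 of Myh6-ctl was thus lowest in Dbp and highest in Arntl of the 6 hearts. Of 21 clock genes 5 were lower (23.8%) and 1 higher (4.76%) without overlap, against 8.64% and 8.83% over all genes. Their median was -0.404. Without Myh6-ctl replicate 1 it was -0.0727, and 6 were lower and 4 higher without overlap, against 2632 and 2636 of 15334 genes tested. DESeq2 called 1 lower, and 2 lower and 1 higher without that heart. The hour of collection was not given in the sources used here, and its part in other results was not tested. Nr1d1, the repressor REV-ERB alpha, was lower in every P90 heart, at 132, 152 and 163 CPM against 59.4, 76.4 and 65.2 CPM (log2 fold change -1.15, SE 0.15, edgeR adjusted p = 0.0527, DESeq2 adjusted p = 1.3e-08).

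Genes of hormone response and acute stress gave calls by DESeq2 and none by edgeR. Of 25 hormone receptor and target genes DESeq2 called 2 higher and 1 lower (4 higher without Myh6-ctl replicate 1). Fkbp5, a glucocorticoid target, stood at 9.25, 11.9 and 7.52 CPM at P30 and at 15.1, 32.7 and 53.4 CPM at P90 (DESeq2 adjusted p = 6.6e-05). Hr, a corepressor and target of thyroid hormone receptors, stood at 17.6, 17.6 and 19.5 CPM against 10.1, 7.70 and 10.9 CPM (log2 fold change -0.93, SE 0.17, DESeq2 adjusted p = 0.0012). Of 27 immediate early genes DESeq2 called 4 higher, and 2 to 8 when 1 heart was left out, with 8 without Myh6-ctl replicate 1 and 2 without EIIa-ctl replicate 1 or 3 or Myh6-ctl replicate 2 or 3. There were 4 higher and 1 lower without overlap, among them Maff, a small bZIP factor, at 5.83, 5.08 and 4.83 CPM against 9.25, 13.3 and 17.1 CPM, and Socs3, the feedback inhibitor of cytokine signalling, at 3.38, 4.84 and 3.26 CPM against 8.78, 8.91 and 16.0 CPM. Of 30 heat-shock genes 7 were higher and 1 lower without overlap, and DESeq2 called 2 higher (0 without EIIa-ctl replicate 3, 1 without Myh6-ctl replicate 3 and 5 without Myh6-ctl replicate 1). Hsp90aa1, the inducible HSP90, stood at 133, 130 and 96.3 CPM against 166, 285 and 263 CPM (log2 fold change 0.99, SE 0.22, DESeq2 adjusted p = 0.0012). Of 79 cytosolic ribosomal protein genes 77 were above 0, with a median of 0.295 and 2 higher without overlap. Without Myh6-ctl replicate 1, 70 of them were higher without overlap and DESeq2 called 32, with a median of 0.481.

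The hearts labelled transgenic gave a second pair of ages with no shared sample, 3 libraries labelled Myh6-tg at P90 and 3 EIIa-tg at P30. Their transgene, tamoxifen and Cre differed from the controls as well as from each other. Esr1, which reads the CreERT2 fusion, had 61, 116 and 53 counts in the libraries labelled Myh6-tg and A1cf had 0, as in the P30 hearts, so these libraries lacked the mark that every Myh6-ctl heart carried, and what follows is a comparison of libraries as labelled. Of 15297 genes tested, edgeR called 2473, 1285 higher (8.40%) and 1188 lower (7.77%). That count was 386, 522 and 1098 without EIIa-tg replicates 1, 2 and 3 and 5160, 798 and 682 without the libraries labelled Myh6-tg replicates 1, 2 and 3. Over 14573 genes tested in both comparisons 62% had the same sign. Of the 405 genes that DESeq2 called in controls and that were tested in both, 326 (80.5%) had the same sign. Of those 405 genes, 116 were called in the same direction among the 2473 called in the labelled transgenic hearts, and 15 in the opposite direction.

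Transgenic and control hearts of P30 differed in level for Serpina3n, with 9196, 2455 and 11044 counts in EIIa-tg against 302, 353 and 175 in EIIa-ctl. For Frem2 these counts were 194, 453 and 195 against 822, 638 and 701. The fold changes thus start from different levels. Serpina3n and Frem2, called in controls, had the same sign and were called in the labelled transgenic hearts, with log2 fold changes of 2.08 (edgeR adjusted p = 0.0463) and -1.77 (edgeR adjusted p = 0.0294). NewGene_4838 was also called lower there (edgeR adjusted p = 0.041), with 27, 318 and 20 counts in EIIa-tg and 0 in each library labelled Myh6-tg, so that its fitted fold change depends on the prior count and is not given. Gpnmb, Lyve1, Mrc1 and Alas2 were called higher there with log2 fold changes of 2.46, 0.62, 0.85 and 2.95, and Ky, Klhl33, Tcap, Lmod3 and Dgat2 were called lower with -5.67, -2.04, -1.95, -2.41 and -2.49. Macrophage markers had a median of 0.490 with 4 of 25 called higher and 1 lower, and complement genes a median of 0.143 with 1 of 19 called higher, against 0.985 in controls. Erythroid genes had a median of 2.24 with 2 of 9 called. TCA cycle genes had a median of -1.01 with 10 of 24 called lower, against 7.77% over all genes, and respiratory chain genes of -0.962 with 51 of 78 called lower.

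The difference between the comparisons was itself tested by an interaction term over all 12 hearts, and 624 of 15929 genes had an edgeR adjusted p under 0.05. Ccl7 was higher at P90 in controls (log2 fold change 1.98) and was called lower in the hearts labelled transgenic (-3.002), a difference of -4.99 (edgeR adjusted p = 0.00611). C3, with 2.36 in controls, had -0.09 in the hearts labelled transgenic, a difference of -2.45 (edgeR adjusted p = 0.0301), and for Adgre1 the values were 1.03 and -0.61 (adjusted p of the difference 0.0289). Ppargc1a, with 0.94 in controls, was called lower there with -1.35 (adjusted p of the difference 0.0112), and Sparc, with -0.64 in controls, was called higher with 1.28 (adjusted p of the difference 0.0135). Mest and Nr1d1, lower at P90 in the control hearts, had log2 fold changes of -0.19 and -0.08 in the hearts labelled transgenic, and neither difference passed (adjusted p = 0.226 and 0.0516).

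**Figure D5:**
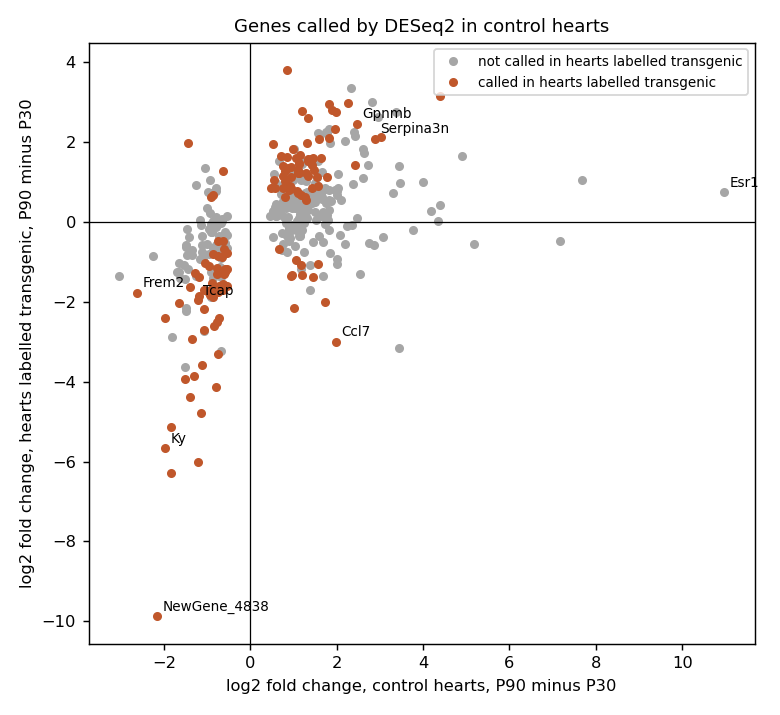
Log2 fold change of P90 minus P30 for the genes that DESeq2 called in control hearts and that were tested in both comparisons, in controls (horizontal axis) and in the hearts labelled transgenic (vertical axis). Each point is 1 gene and orange points were also called by edgeR in the hearts labelled transgenic. Most points lie in the quadrants of equal sign, Esr1 lies far to the right near 0 on the vertical axis, and Ccl7 lies in the quadrant of opposite sign. NewGene_4838, with 0 counts in each library labelled Myh6-tg, is drawn at a fitted value that depends on the prior count.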

How the data were processed

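Heart RNA of 12 mice was sequenced as paired-end reads and, per the paper, mapped with Hisat2 to GRCm38. The submitters' processing notes name HISAT2 2.0.4, StringTie 2.2.1 and DESeq2, with the builds GRCm39 and mm10, and the annotation release was not given in the sources used here. The authors deposited raw counts per gene (25171 rows, of which 3135 are unnamed assembled loci) and FPKM values, which they scaled by transcript length and by the fragments of each heart. Positions were taken from GENCODE M21 (GRCm38) by Ensembl identifier, which matched 22022 of 22036 rows.

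Counts of the 6 control hearts were filtered with filterByExpr, scaled by TMM and fitted with edgeR 4.0.16 (quasi-likelihood, group as the only term) in R 4.3.3, with Benjamini-Hochberg adjustment over all genes tested. The hearts labelled transgenic were fitted alike, and the interaction was tested over all 12 hearts. Groups came from the labels. DESeq2 1.42.0, limma 3.58.1 on log2 FPKM, other filters and scalings, sex, the replicate number as a block and leaving out each heart were alternatives. The block was not part of the design, since the numbers do not pair the hearts. Isoform shares were compared by an exact two-sided permutation test. Scripts were tested on simulated data. Depth was 40839423 to 50940490 counts, and the floor of 3 counts covers counting error only.

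The members and gene lists were chosen with earlier results of these data known. Named genes were a core set of maturation genes, the called genes with the largest change in each direction (at most 6 per direction, mean of at least 5 CPM, no overlap) and list members by textbook role. In each list described, up to 4 called members with the lowest adjusted p in these data and a mean of at least 1 CPM were also named. Other named genes were chosen after their values were seen. A few of these genes are not reported here.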

Additional observations from a re-analysis of the deposited data

Results flagged for a closer look

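The results below drew attention because the log2 difference of P90 minus P30 was not the same in control hearts as in hearts labelled transgenic, either by edgeR's interaction test over 12 hearts or because all 3 hearts moved one way in one comparison and the opposite way in the other. Only genes named in the text were looked at, some of them chosen after their values were seen. Over all genes, 624 of 15929 passed the interaction test. Values are the transgenic minus the control log2 fold change. The transgene, tamoxifen and Cre differ between the comparisons, and the libraries labelled Myh6-tg lacked the Esr1 signal of the driver, so the cause cannot be told apart here.

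Esr1 differed by -10.23 (edgeR adjusted p = 9.89e-05), since the signal was in the Myh6-ctl hearts alone. Among immune genes, the chemokine Ccl7 differed by -4.99 (adjusted p = 0.00611), C3 by -2.45 (adjusted p = 0.0301), Gbp6 by -2.26 (adjusted p = 0.0189) and Adgre1 by -1.64 (adjusted p = 0.0289), each of them higher at P90 in controls with a log2 fold change at or below 0 in the hearts labelled transgenic. Ptgds, a prostaglandin D2 synthase, differed by -2.50 (adjusted p = 0.0152), and Aldh1a2 by -2.36 (adjusted p = 0.0207).

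In muscle and metabolism, Ky differed by -3.67 (adjusted p = 0.00713), Ppargc1a by -2.28 (adjusted p = 0.0112), Kcnj2 by -1.93 (adjusted p = 0.0219), Dgat2 by -1.72 (adjusted p = 0.0143), Adra1b by -1.61 (adjusted p = 0.0123) and Cpt1b by -1.28 (adjusted p = 0.00947), with the hearts labelled transgenic lower at P90 in every case. Slc2a1 differed by 1.28 (adjusted p = 0.0312). In the matrix, Postn differed by 3.41 (adjusted p = 0.0154) and Sparc by 1.92 (adjusted p = 0.0135). The water channel Aqp4 differed by -4.79 (adjusted p = 0.0112) and Tet3, which oxidises methylated cytosine, by 0.91 (adjusted p = 0.0275). The disc gene Ctnna1 had opposite directions without overlap in the comparisons, with a difference of 0.68 that did not pass (adjusted p = 0.098).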

How the results depend on the processing

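The replicate numbers do not pair the hearts (correlation of same-numbered deviations 0.122, 0.0674 and -0.0492). With them as a block, edgeR called 27 genes in controls and 1490 in the hearts labelled transgenic. The 5 genes called in controls became 428 with DESeq2, 65 with no filter, 11 at a CPM of at least 1 in 3 hearts, 13 with sex as a covariate, 3 without the unnamed loci, 8 with limma on log2(FPKM + 0.1), 1 with limma on log2(FPKM + 1) without filter, 18 with bias-adjusted quasi-likelihood and 66 at an adjusted p under 0.1. The last 2 settings were added after seeing the data. The 5 genes past the stricter thresholds became 176 with DESeq2, 2 with all 12 hearts in one fit or with sex, 3 without the unnamed loci, and 2, 3 and 1 with limma on log2(FPKM + 1), log2(FPKM + 0.1) and log2(FPKM + 1) without filter. Leaving out 1 heart gave 3 to 98 and 0 to 9 such genes in controls, 144 to 959 by DESeq2, and 386 to 5160 in the hearts labelled transgenic, where DESeq2 called 3747 against 2473. RLE factors gave 7 and 5 genes.

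The genes called in controls kept their sign under every setting in which they were tested. The call was lost for Serpina3n, Frem2, NewGene_910 and NewGene_4838 with limma on log2(FPKM + 1) without filter (adjusted p = 0.108 for each), and for Frem2 with limma on log2(FPKM + 1) and log2(FPKM + 0.1) (0.0562 and 0.071). The sign changed for 8 named genes that no tool called in the comparison of 6 hearts. Actc1 became 0.0024 with DESeq2, 0.0027 with RLE factors and 0.0051 at the stricter filter, and Tnni1 became -0.18 with the block and -0.16 with sex. Without 1 heart the log2 fold changes ran from -0.024 to 0.62 for Acta1, -0.23 to 0.21 for Actc1, -0.17 to 0.18 for Cd36, -0.11 to 0.46 for Col3a1, -0.077 to 0.49 for Fn1, -0.027 to 1.03 for Mki67, -0.34 to 0.77 for Pdk4 and -0.57 to 0.61 for Tnni1.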

Other observations

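Further genes outside the lists stood apart between P90 and P30 control hearts and were chosen here after their values were seen. Prg4, the lubricating proteoglycan of serous surfaces, stood at 7.76, 6.42 and 6.05 CPM at P30 and at 17.3, 17.5 and 14.9 CPM at P90 (log2 fold change 1.29, SE 0.17, edgeR adjusted p = 0.0529), and Srpx, a sushi repeat protein, at 2.68, 2.79 and 2.43 CPM against 11.7, 8.80 and 7.56 CPM (log2 fold change 1.83, SE 0.23, edgeR adjusted p = 0.0526). Nrep, a regulator of TGF-beta signalling in wound cells, stood at 48.7, 59.4 and 48.2 CPM against 22.8, 24.8 and 17.1 CPM (log2 fold change -1.27, SE 0.18, edgeR adjusted p = 0.0618). Apln, the apelin peptide of vessel sprouts, stood at 27.2, 26.8 and 26.6 CPM against 16.3, 5.84 and 6.46 CPM (DESeq2 adjusted p = 0.00096), and Aqp4, a water channel, at 8.76, 6.42 and 8.23 CPM against 2.63, 2.72 and 4.78 CPM (DESeq2 adjusted p = 0.0093). Tet3, an enzyme that oxidises methylated cytosine, stood at 31.0, 24.4 and 26.8 CPM against 17.2, 13.5 and 16.8 CPM (DESeq2 adjusted p = 0.0042). None of these genes passed the edgeR threshold, and none overlapped between the ages.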
